A study of Mus musculus with 63 samples.

Results

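The genes that take up dietary lipid in enterocytes and pack it into chylomicrons were followed by RNA-Seq in mouse intestinal organoids and in small intestinal epithelial cells (IECs) lacking the Mediator kinases CDK8 and CDK19. The set holds 10 of the 54752 genes in the count tables, matched by symbol, and all 10 were detected in every group. They are Cd36, Fabp1, Fabp2, Mogat2, Dgat2, Apob, Mttp, Apoa1, Apoa4 and Apoc3. The set was drawn up with the higher Cd36 level in both organoids and IECs already known. Cd36 is therefore described without a test in every comparison that involves a deletion and in that of the control lines. All members are described without a test where CDK8iIEC-KO/Cdk19-/- was set against VillinCreERT2 or against the sum of the single knockouts.

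CDK8 and CDK19 are paralogous kinases of the Mediator complex, which links transcription factors to RNA polymerase II. The libraries fall into 19 groups of 3, all on a C57BL/6 background, and Cre recombinase driven by the Villin promoter (VillinCreERT2) acts in the intestinal epithelium once tamoxifen or its metabolite 4-OHT is given. Organoids of 5 groups all received 100 nM 4-OHT and were collected 7 days later: VillinCreERT2, C57BL/6 without Cre, VillinCreERT2 with Cdk8 fl/fl (CDK8iIEC-KO), Cdk8 fl/fl with Cdk19 ko/ko but no Cre (Cdk8fl/fl/Cdk19-/-), and VillinCreERT2 with Cdk8 fl/fl and Cdk19 ko/ko (CDK8iIEC-KO/Cdk19-/-). Each of these groups is 1 organoid line, so line and genotype cannot be told apart in them. A time course used 1 line of VillinCreERT2 with Cdk8 fl/fl and Cdk19 ko/ko, given 100 nM 4-OHT or 0.001% ethanol (EtOH) and collected after 3, 5, 7 and 10 days. Its EtOH controls lack CDK19 too, so that 4-OHT removes CDK8 from cells that already lack its paralog. The same line was grown in Wnt3-conditioned medium (Wnt3-CM) for 10 days with either agent. A further line carried VillinCreERT2, Cdk8 fl/fl and Cdk19 ko/D173A, where D173A is a kinase-dead CDK19, and was collected 7 days after 4-OHT or EtOH. Its EtOH control carries the kinase-dead allele as well. IECs came from VillinCreERT2 and CDK8iIEC-KO/Cdk19-/- mice that received 5 daily injections of tamoxifen at 80 mg/kg, 14 days after the last injection. The count columns of the Cdk19 ko/D173A organoids name no genotype. They were given to this line because no other line with EtOH libraries was left, which is an assignment by elimination. Wnt3-CM and Cdk19 ko/D173A columns were matched to a group, and their replicate numbers below are those of the columns.

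Dietary triglyceride is split in the gut lumen, and enterocytes take up the fatty acids and monoglycerides. Inside the cell they are bound by carrier proteins, rebuilt into triglyceride at the endoplasmic reticulum and loaded onto apolipoprotein B, which leaves the cell basally as a chylomicron. CD36 is a membrane receptor for long-chain fatty acids. FABP1 (liver type) and FABP2 (intestinal type) are cytosolic fatty acid binding proteins. MOGAT2 makes diglyceride from monoglyceride, and DGAT2 adds the last acyl chain. APOB is the structural scaffold of the particle, and MTTP is the transfer protein that lipidates it. APOA1 and APOA4 ride on the particle surface, APOA1 being also the main protein of high density lipoprotein, and APOC3 inhibits lipoprotein lipase.

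On GRCm38, Apoa1 (chr9:46228580-46230466), Apoc3 (chr9:46232933-46235636) and Apoa4 (chr9:46240696-46243459) lie side by side in 1 cluster without overlapping. Dgat2 (chr7:99153658-99182719) and Mogat2 (chr7:99219084-99238619) are neighbours on another chromosome. The remaining members lie apart from each other, at chr5:17781690-17888801 (Cd36), chr6:71199827-71205023 (Fabp1), chr3:122895072-122899506 (Fabp2), chr3:138089854-138144968 (Mttp) and chr12:7977648-8016835 (Apob). RefSeq start sites on GRCm38.p6 were at hand for 7 of the 10 members, which leaves Mogat2, Dgat2 and Apoc3 without a window. The 250 bases before the start are shown for Cd36 (chr5:17835897-17836146, minus strand), the member with the largest differences, for Fabp1 (chr6:71199629-71199878, plus strand), which was lower than its control on days 3 and 5 of the time course, and for Apoa4 (chr9:46240594-46240843, plus strand), an apolipoprotein for contrast. Capitals mark AGGTCA, the core letters bound by many nuclear receptors, found on either strand and here read as TGACCT.
Cd36: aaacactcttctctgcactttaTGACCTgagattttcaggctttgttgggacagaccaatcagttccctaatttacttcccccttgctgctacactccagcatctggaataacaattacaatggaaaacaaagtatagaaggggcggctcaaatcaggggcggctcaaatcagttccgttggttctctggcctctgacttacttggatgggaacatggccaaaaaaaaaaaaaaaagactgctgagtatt
Fabp1: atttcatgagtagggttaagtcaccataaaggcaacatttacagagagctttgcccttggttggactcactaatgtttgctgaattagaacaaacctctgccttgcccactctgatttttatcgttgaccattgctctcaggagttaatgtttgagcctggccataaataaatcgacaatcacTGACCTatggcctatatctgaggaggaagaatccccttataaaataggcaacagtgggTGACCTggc
Apoa4: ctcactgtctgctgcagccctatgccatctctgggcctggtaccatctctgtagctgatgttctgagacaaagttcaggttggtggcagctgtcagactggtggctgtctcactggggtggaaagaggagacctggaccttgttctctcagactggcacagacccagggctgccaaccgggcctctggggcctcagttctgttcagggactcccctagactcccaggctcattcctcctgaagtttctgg
The letters AGGTCA stood 228 to 223 bases before the start of Cd36 and at 67 to 62 and 9 to 4 bases before that of Fabp1, in all 3 places on the strand opposite the gene. No other member with a window held them, while 14% of all 32851 windows of this length did. TATAAA, searched on both strands, occurred in 12.4% of the windows and in those of Fabp1 and Apob. CAAAGTCCA, a binding sequence of HNF4, occurred in 0.384% of them and in none of the 7. RefSeq starts differ from the outermost ends in the GENCODE annotation. All 250 bases of the Cd36 window, 52 bases of the Fabp1 window, which hold its match at 9 to 4, and 148 bases of the Apoa4 window lie inside the annotated gene. The Cd36 window belongs to 1 start of a gene with 6 annotated transcripts.

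Total counts ran from 15485959 to 32909565 per library. Levels are given as CPM, counts scaled to a fixed library size after TMM normalization, with the SD over 3 libraries after ±, and differences as log2 fold changes with their standard error after ±. A gene was called where edgeR's quasi-likelihood test gave a Benjamini-Hochberg adjusted p under 0.05 and the fold change exceeded 1.5. Nothing in the labels says that libraries of a group came from separate cultures, so p-values measure the spread between libraries only, which may be technical. Organoid columns of a group share a line number, while each IEC column has its own number, which may stand for a mouse. Whole-gene counts did not check the deletions. Cdk8 stood at 65.1 to 67.2 CPM in CDK8iIEC-KO/Cdk19-/- organoids and at 78.0 to 83.1 CPM in CDK8iIEC-KO, against 71.9 to 80.8 CPM in VillinCreERT2. In IECs it stood at 49.1 to 52.5 CPM without both kinases and 45.7 to 52.8 CPM in VillinCreERT2. Cdk19 was at 24.7 to 26.0 CPM in Cdk8fl/fl/Cdk19-/- organoids and at 28.7 to 34.5 CPM in C57BL/6. Transcripts of both genes were thus still counted in the deleted groups, and the genotypes rest on the labels. The sum over 6 epithelial markers lay between 6118 and 11305 CPM in every library.

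Per kilobase of exon, Cd36 had the lowest level of the 10 members in all 19 groups. In VillinCreERT2 IECs the levels per kilobase were led by Apoa1 at 6006 ± 559.9 CPM per kb. Fabp2 (2661 ± 132) and Fabp1 (2609 ± 128 CPM per kb) came next and did not differ beyond their spread, ahead of Apoa4 at 2275 ± 181 CPM per kb. Mttp followed at 537 ± 31.3, Mogat2 at 361 ± 9.66, Apoc3 at 289 ± 20.1, Apob at 236 ± 12.7, Dgat2 at 115 ± 9.19 and Cd36 at 19.0 ± 2.38 CPM per kb. In VillinCreERT2 organoids the order began with Fabp1 at 2791 ± 559 CPM per kb, ahead of Apoa1 at 1142 ± 148 CPM per kb. Apoc3 (77.9 ± 10.2) and Apob (77.5 ± 3.76 CPM per kb) stood level there, and Cd36 came last at 2.24 ± 0.362 CPM per kb. Fabp1 was the top member per kilobase in 7 groups, the 5 day 7 genotypes and both Cdk19 ko/D173A groups, and Apoa1 in the other 12.

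In relative terms Cd36 had the widest range of the members across the libraries, from under 1 CPM in Wnt3-CM controls to over 200 CPM in IECs of CDK8iIEC-KO/Cdk19-/- mice. In each of the 10 comparisons of a deletion group with its control it was higher in every library of the deletion group, except on day 3 of the time course. These levels chose the set and are a description.

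**Figure D1:**
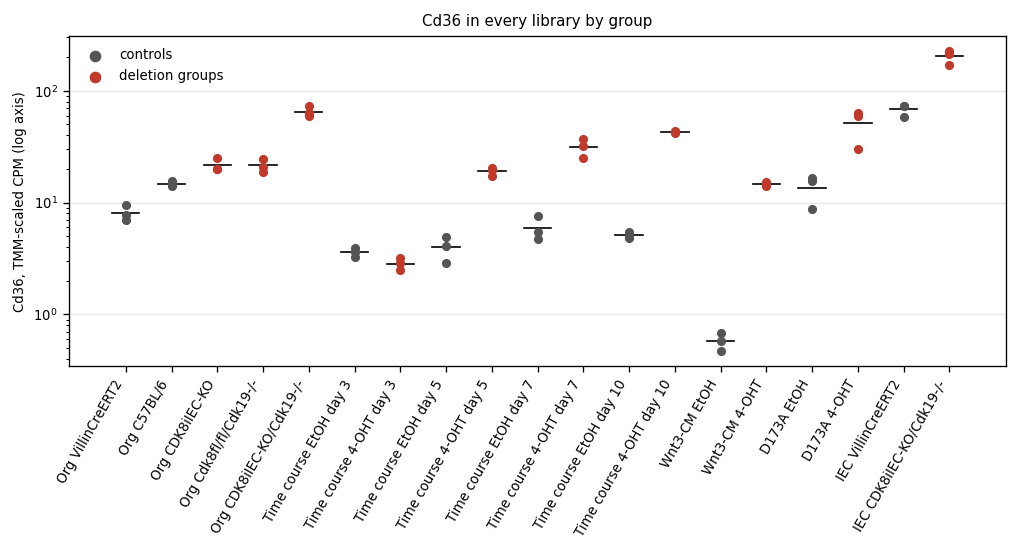
Cd36 level as TMM-scaled CPM on a log axis in each of 57 libraries, by group along the x axis, with controls in grey, deletion groups in red and the group mean as a bar. The Wnt3-CM controls lie lowest at 0.472 to 0.684 CPM and the IECs of CDK8iIEC-KO/Cdk19-/- mice highest at 171 to 225 CPM, and the tables were normalized separately.

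In organoids 7 days after loss of both kinases, Cd36 was about 8 times its control level, and the other lipid genes were higher by far less or overlapped with the control. Cd36 read 6.98, 7.68 and 9.50 CPM in the VillinCreERT2 libraries and 63.0, 72.8 and 59.0 CPM in CDK8iIEC-KO/Cdk19-/-. The groups lay far apart, with a log2 fold change of 3.01 ± 0.12 (fold change 8.07). In a bulk library, a change in the number of cells of one type and a change in RNA per cell cannot be told apart. Among the carriers, Fabp1 stood at 1338, 1393 and 1899 CPM in the control and 2655, 2522 and 2532 CPM in the deletion libraries (0.74 ± 0.16). Fabp2 stood at 374, 429 and 429 against 547, 596 and 579 CPM (0.48 ± 0.074). Neither carrier overlapped between the groups. The re-esterification enzymes did overlap, Mogat2 with 142, 169.6 and 166 against 175, 177 and 161 CPM and Dgat2 with 123, 139.7 and 145 against 137, 133 and 126 CPM. Their log2 fold changes were 0.10 ± 0.068 and -0.044 ± 0.064. For the particle itself, Apob stood clear of its control, at 1761, 1551 and 1569.7 CPM against 1035, 1068 and 1138 CPM (0.59 ± 0.12), while Mttp overlapped (0.077 ± 0.061). Among the surface apolipoproteins, Apoa4 read 1290.01, 1326 and 1602 CPM in the control and 2189.5, 2211 and 2033 CPM in the deletion group (0.61 ± 0.084). Apoa1 differed by 0.32 ± 0.094 and Apoc3 by -0.015 ± 0.13.

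Cd36, Fabp1, Apoa4 and Apob were past both cutoffs in this comparison, 4 of 10 members against 19.4% of all genes tested, and 6 of 10 did not overlap against 59.8% of all genes; since the members were chosen on it, nothing is read from these counts. Without VillinCreERT2 replicate 1 or 2 the count was 2. The median log2 fold change was 0.40 over the members and -0.0021 over all genes. The same libraries held fewer transcripts of Paneth cells, the antimicrobial secretory cells of the crypt. The sum over 5 Paneth markers was 583 to 604 CPM in CDK8iIEC-KO/Cdk19-/- and 1840.1 to 1936 CPM in VillinCreERT2, with 5 of 5 called lower. Of 8 enterocyte markers 0 were called and 5 had positive log2 fold changes, with a median of 0.18, while their sum was 9120.1 to 9741 CPM against 10085 to 12409 CPM. Of 6 markers of the distal small intestine, 3 were lower and 1 was higher. The part of these shifts in the lipid gene levels was not tested. Markers of other cells that make CD36 were low in both groups, and their part in the Cd36 level was not tested. The sum over 7 macrophage markers was 6.03 to 9.14 CPM in CDK8iIEC-KO/Cdk19-/- and 9.45 to 16.1 CPM in VillinCreERT2, with Adgre1, C1qb and C1qc at 0 in all 6 libraries. The sum over 7 endothelial markers was 3.03 to 4.32 CPM against 3.84 to 4.50 CPM, with Cdh5 and Kdr at 0. The sum over 5 adipocyte markers was 19.7 to 21.2 CPM against 22.5 to 28.5 CPM, with Adipoq, Cfd and Lep at 0, and that over 4 platelet and erythroid markers was 1.21 to 1.52 CPM against 0.850 to 1.19 CPM, with Pf4 and Hba-a1 at 0.

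**Figure D2:**
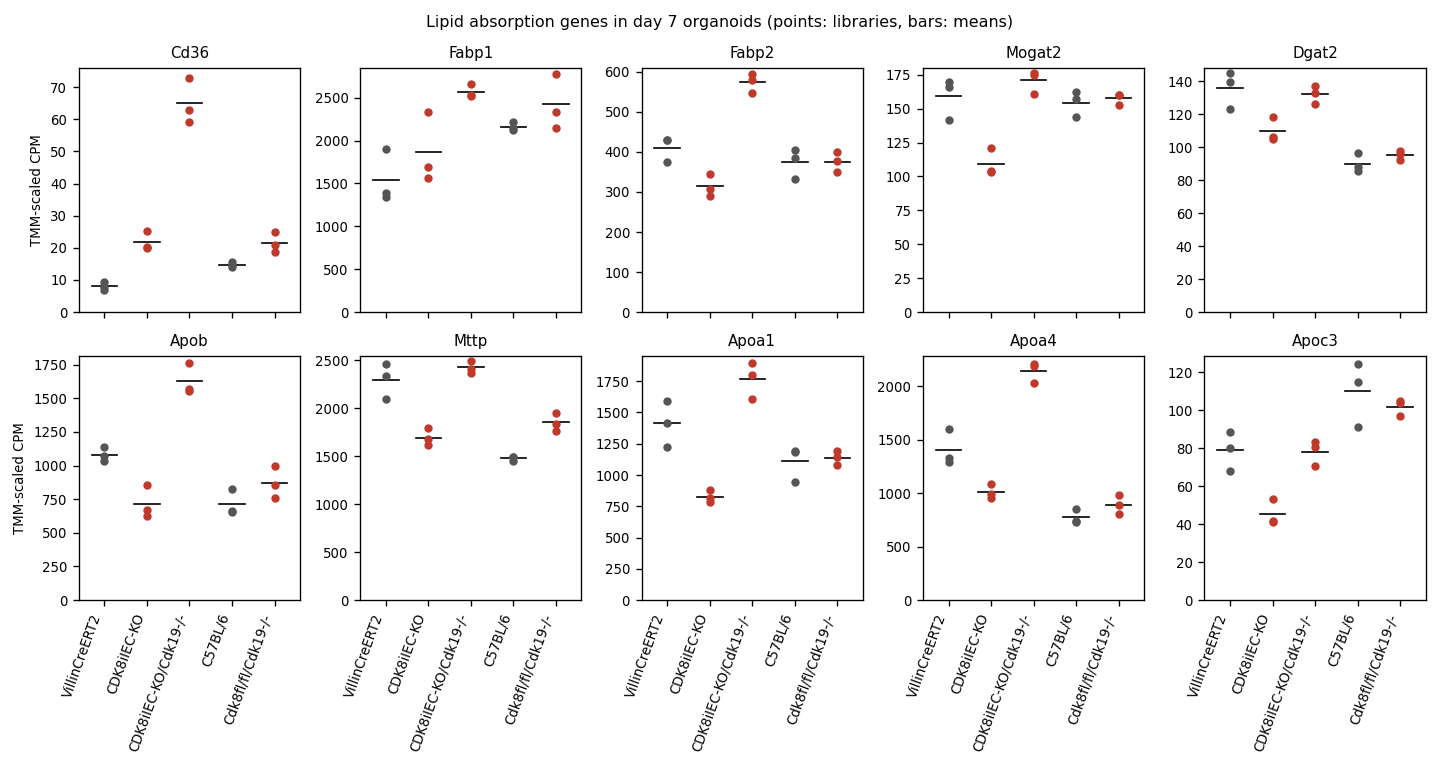
Level of each member as TMM-scaled CPM on a linear axis from 0 in the 5 groups of day 7 organoids, with 1 point per library, the mean as a bar and deletion groups in red. Cd36 stands at 59.0 to 72.8 CPM in CDK8iIEC-KO/Cdk19-/- against 6.98 to 9.50 CPM in VillinCreERT2, while Mogat2, Dgat2, Mttp and Apoc3 of these 2 groups overlap.

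CDK8iIEC-KO organoids held more Cd36 and less of most other members than the same VillinCreERT2 libraries, which this comparison shares with the one above. Cd36 read 19.9, 20.2 and 25.3 CPM in CDK8iIEC-KO, a log2 fold change of 1.44 ± 0.13 (fold change 2.71). All of its libraries exceeded all controls. Of the other 9 members, Apoa1, Apoc3 and Apob fell past both cutoffs, against 7.23% of all genes called and 4.34% called lower. Apoa1 fell to 817, 787 and 879.6 CPM from 1227, 1594 and 1416 CPM (-0.77 ± 0.10, edgeR adjusted p = 8.5e-06). Apoc3 fell to 41.7, 41.2 and 53.4 CPM from 68.2, 80.0 and 88.7 CPM (-0.80 ± 0.13, adjusted p = 0.00039). Apob fell to 668, 856 and 629 CPM (-0.59 ± 0.12, adjusted p = 0.0029). The Apob call was lost without CDK8iIEC-KO replicate 1 (-0.54) or 3 (-0.50) or VillinCreERT2 replicate 3 (-0.55). Mogat2 (-0.54 ± 0.069, adjusted p = 1.5e-06), Apoa4 (-0.47 ± 0.084, 0.00023), Mttp (-0.44 ± 0.061, 5e-06), Fabp2 (-0.38 ± 0.074, 0.00039) and Dgat2 (-0.31 ± 0.064, 0.00058) passed the p cutoff with a fold change under 1.5. Fabp1 gave 0.27 ± 0.16 (adjusted p = 0.23). Libraries of the groups did not overlap for 8 of these 9 members, against 44.9% of all genes, and their median was -0.47 against 0.022 over all genes. Other enterocyte genes were lower as well, with 4 of 8 enterocyte markers and 6 of 6 distal small intestine markers called lower, and the enterocyte sum at 6091 to 6836 CPM. Their part in the lower lipid gene levels was not tested.

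The lower values depended on the control line. Set against C57BL/6 organoids instead, a control chosen after these values were seen, 1 of the 9 members other than Cd36 was called in CDK8iIEC-KO, namely Apoc3 (-1.28, edgeR adjusted p = 1.6e-06). Apoa1 gave -0.42 and lost its call, and Apob gave 0.0052, with means of 717 CPM in CDK8iIEC-KO and 715 CPM in C57BL/6. Mttp (0.20), Apoa4 (0.39) and Dgat2 (0.29) turned from below VillinCreERT2 to above C57BL/6, and Fabp1 turned the other way (-0.21). Mogat2 (-0.50) and Fabp2 (-0.25) stayed lower. Cd36 gave 0.57 in place of 1.44.

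With CDK19 alone missing, none of the 9 members other than Cd36 was called. Cd36 read 15.5, 14.5 and 14.0 CPM in C57BL/6 and 24.8, 21.0 and 18.7 CPM in Cdk8fl/fl/Cdk19-/- organoids, which do not overlap (0.55 ± 0.12, fold change 1.47). The count of these 9 called by edgeR was 0, against 5.25% of all genes, and Mttp was the 1 whose libraries did not overlap, against 30.8% of all genes. Mttp read 1489, 1491 and 1446 CPM in the control and 1952, 1836 and 1764 CPM without CDK19 (0.33 ± 0.061, adjusted p = 0.0004). The other 8 lay between -0.11 (Apoc3) and 0.29 (Apob) on the log2 scale. DESeq2 called 0 as well. By edgeR's unadjusted p under 0.05, 3 of these 9 (Mttp, Apoa4 and Apob) were counted, against 27.8% of all genes.

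The levels without both kinases were also set against the single knockouts added together, as a description, since the CDK8iIEC-KO/Cdk19-/- libraries are those on which the set was chosen. The log2 fold change of CDK8iIEC-KO/Cdk19-/- exceeded the sum of those of CDK8iIEC-KO and Cdk8fl/fl/Cdk19-/- by 1.03 ± 0.16 for Cd36. The excess was 1.06 ± 0.13 for Apoa1, 0.90 ± 0.18 for both Apoc3 and Apob, 0.88 ± 0.12 for Apoa4, 0.86 ± 0.11 for Fabp2 and 0.61 ± 0.10 for Mogat2. It was 0.30 ± 0.23 for Fabp1, 0.19 ± 0.086 for Mttp and 0.18 ± 0.092 for Dgat2. Of the 9 members other than Cd36, 6 were past both cutoffs, all higher, against 19.6% of all genes called and 11.3% called higher, and nothing is read from this count. For the apolipoproteins the excess goes with values below VillinCreERT2 in CDK8iIEC-KO, and 5 of 8 enterocyte markers exceeded the sum as well.

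The control lines themselves differed in these genes. As a description, Cd36 was higher in C57BL/6 than in VillinCreERT2 organoids by 0.87 ± 0.14 on the log2 scale. It was not tested, since the set was chosen on Cd36 in these VillinCreERT2 libraries as well. Apoa4 was lower, at 735, 856 and 727 CPM against 1290.01, 1326 and 1602 CPM (-0.86 ± 0.085, edgeR adjusted p = 2.4e-08). Mttp (-0.64 ± 0.061, 1.8e-09), Dgat2 (-0.60 ± 0.065, 1.5e-08) and Apob (-0.60 ± 0.13, 0.00097) were lower too. That makes 4 of the 9 members other than Cd36 called between 2 lines that both have their kinases, against 26.4% of all genes. Libraries did not overlap for 7 of these 9, against 63.7%. The Apob call was lost without C57BL/6 replicate 2 or 3 or VillinCreERT2 replicate 3, and the Dgat2 call without replicate 1 or 3 of C57BL/6 or 2 or 3 of VillinCreERT2. That left 3 to 5 members past both cutoffs with Cd36 counted. With upper quartile normalization Apoa4 alone of these 9 was called, and Mttp (-0.55), Dgat2 (-0.51) and Apob (-0.51) fell short of the fold cutoff. With the mean of both control lines in place of VillinCreERT2, the log2 fold change in CDK8iIEC-KO/Cdk19-/- was 2.58 for Cd36, 1.04 for Apoa4, 0.89 for Apob, 0.55 for Fabp2, 0.50 for Apoa1, 0.49 for Fabp1, 0.40 for Mttp, 0.26 for Dgat2, 0.12 for Mogat2 and -0.26 for Apoc3. Fabp1 then lies under the fold cutoff that it passed against VillinCreERT2 alone.

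The time course followed the loss of CDK8 within 1 line, so that line and treatment do not coincide. Exposure to 4-OHT and Cre activation do coincide with the loss of CDK8 and cannot be told apart from it. VillinCreERT2 organoids with both kinases had no EtOH libraries. The same holds for the comparisons in Wnt3-CM and in Cdk19 ko/D173A organoids. On day 3, 6 of the members other than Cd36 fell against the EtOH control. Fabp1 read 201, 194 and 189 CPM with EtOH and 51.1, 55.0 and 46.9 CPM with 4-OHT, a fall of about 4 times (-1.93 ± 0.20, edgeR adjusted p = 7e-07). Apoa1 fell from 1349, 1095 and 1193 to 478, 496 and 367 CPM (-1.44 ± 0.10, adjusted p = 7.4e-12). Mogat2 fell from 155, 125 and 135 to 55.9, 68.4 and 59.0 CPM (-1.18 ± 0.10, adjusted p = 5.1e-10). The groups were far apart for all 3 genes. Apoc3 (-1.00 ± 0.13, 3e-06), Mttp (-0.90 ± 0.10, 1.9e-07) and Fabp2 (-0.87 ± 0.09, 9e-09) fell as well. Of the 9 members other than Cd36, 6 fell and 0 rose, against 12.4% of all genes called and 5.95% called lower. Cd36 gave -0.34 ± 0.21 with 3.94, 3.29 and 3.62 CPM against 2.88, 3.20 and 2.48 CPM, Dgat2 -0.28 ± 0.10, Apob 0.016 ± 0.22 and Apoa4 0.27 ± 0.16. Libraries did not overlap for 7 of these 9, against 51.2% of all genes. Of the 8 enterocyte markers 5 fell on this day, and their sum was 1962 to 2383 CPM with 4-OHT against 4762 to 5159 CPM with EtOH. Markers of other cells were higher with 4-OHT, with macrophage sums of 19.2 to 23.4 against 7.40 to 9.46 CPM, endothelial sums of 15.4 to 17.0 against 7.40 to 8.78 CPM and adipocyte sums of 10.3 to 14.5 against 4.36 to 5.94 CPM. Of the tested genes of these lists 2 of 2, 2 of 4 and 1 of 1 were called higher. The part of any of these marker shifts in the lipid gene levels was not tested, here or on the later days.

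By day 5 Cd36 stood at about 5 times its control while Fabp1 and Apoc3 were still low. Cd36 read 4.06, 4.96 and 2.89 CPM with EtOH and 19.7, 20.3 and 17.4 CPM with 4-OHT (2.27 ± 0.16, fold change 4.82). Apoc3 fell from 123, 137 and 129.9 CPM to 48.0, 43.5 and 44.1 CPM (-1.53 ± 0.13, edgeR adjusted p = 1.8e-08). Fabp1 fell from 386, 575 and 281 CPM to 185, 181 and 156 CPM (-1.25 ± 0.19, adjusted p = 6.9e-05). None of these 3 genes overlapped between the groups. Fabp2 rose by 0.59 ± 0.085 (adjusted p = 4.7e-06), close to the fold cutoff, and dropped below it when 4-OHT replicate 2 or 3 (0.56 each) or EtOH replicate 1 (0.48) was left out. Apoa1 gave -0.56 ± 0.10 (adjusted p = 4.7e-05) and Apob 0.57 ± 0.22 (adjusted p = 0.0496), both short of the fold cutoff. Apoa1 was called lower without 4-OHT replicate 3 (-0.62), EtOH replicate 1 (-0.59) or EtOH replicate 3 (-0.63), and Apob was called higher without EtOH replicate 2 (0.85). Apoa4 (-0.26), Mogat2 (-0.16), Mttp (0.082) and Dgat2 (-0.048) did not pass. Leaving Cd36 aside, 3 of 9 members were called, 1 higher and 2 lower, against 13.2% of all genes, and 5 did not overlap, against 45.7%. All 5 Paneth markers were called lower, with sums of 2182 to 2460 CPM with 4-OHT against 4091 to 5222 CPM with EtOH, and of the 8 enterocyte markers 3 rose and 1 fell.

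On day 7 no member was called lower, and Fabp2, Apob and Mogat2 stood above the control beside Cd36. Cd36 read 7.56, 5.44 and 4.72 CPM with EtOH and 37.3, 32.3 and 25.0 CPM with 4-OHT (2.41 ± 0.15). Fabp2 rose from 156, 163 and 177 to 299, 261 and 257 CPM (0.72 ± 0.084, edgeR adjusted p = 6.9e-08). Apob rose from 776, 897 and 724 to 1414, 1484 and 1112 CPM (0.74 ± 0.22, adjusted p = 0.011). Mogat2 rose from 182, 184 and 158 to 283, 275 and 244 CPM (0.62 ± 0.094, adjusted p = 6.1e-06). No library of these 4 genes crossed into the other group. The Apob and Mogat2 calls were both lost without 4-OHT replicate 2 (0.65 and 0.58), which left Fabp2 alone of these 9 called. The Mogat2 call was also lost without 4-OHT replicate 1 (0.57) or EtOH replicate 3 (0.55). Fabp1 (-0.018 ± 0.19) and Apoc3 (-0.095 ± 0.12), both low on day 5, overlapped with the control. Mttp (0.36), Dgat2 (0.29), Apoa1 (0.20) and Apoa4 (0.13) did not pass. Without Cd36, 3 of 9 members were called, against 18.3% of all genes, and 5 did not overlap, against 49.6%. On this day too 5 of 5 Paneth markers were called lower, with sums of 1540 to 1732 CPM against 4270 to 5207 CPM. Enterocyte markers rose for 3 of 8, and of the 6 distal small intestine markers 5 rose and 1 fell.

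On day 10 Cd36 and Fabp2 stood highest above the control. Cd36 read 5.04, 5.46 and 4.82 CPM with EtOH and 43.5, 42.7 and 42.4 CPM with 4-OHT (3.07 ± 0.15, fold change 8.38). Fabp2 rose from 242, 282 and 254 to 609, 764 and 740.1 CPM (1.44 ± 0.084, edgeR adjusted p = 1e-13). Mogat2 rose from 201, 199 and 199 to 329.8, 324 and 291 CPM (0.66 ± 0.093, adjusted p = 2.4e-06). All 3 separated the treatments fully. Apoa4 rose from 796, 732 and 694 to 1243, 1115 and 1003 CPM (0.60 ± 0.16, adjusted p = 0.0061), and fell short of the fold cutoff without 4-OHT replicate 1 (0.51) or EtOH replicate 3 (0.55). Apob (0.45 ± 0.22, adjusted p = 0.11) was called only without EtOH replicate 1 (0.69), the EtOH library where it was highest at 1262 CPM. Mttp (0.40), Apoc3 (0.39), Dgat2 (0.27), Apoa1 (0.012) and Fabp1 (-0.39) did not pass. Of the 9 members other than Cd36, 3 were called, all higher, against 15.8% of all genes called and 8.86% called higher, and 7 did not overlap, against 53.2%. Of the 8 enterocyte markers 5 rose on day 10 and 0 fell. The 5 Paneth markers were called lower, with sums of 1841 to 2169 CPM with 4-OHT against 7293 to 7396 CPM with EtOH.

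**Figure D3:**
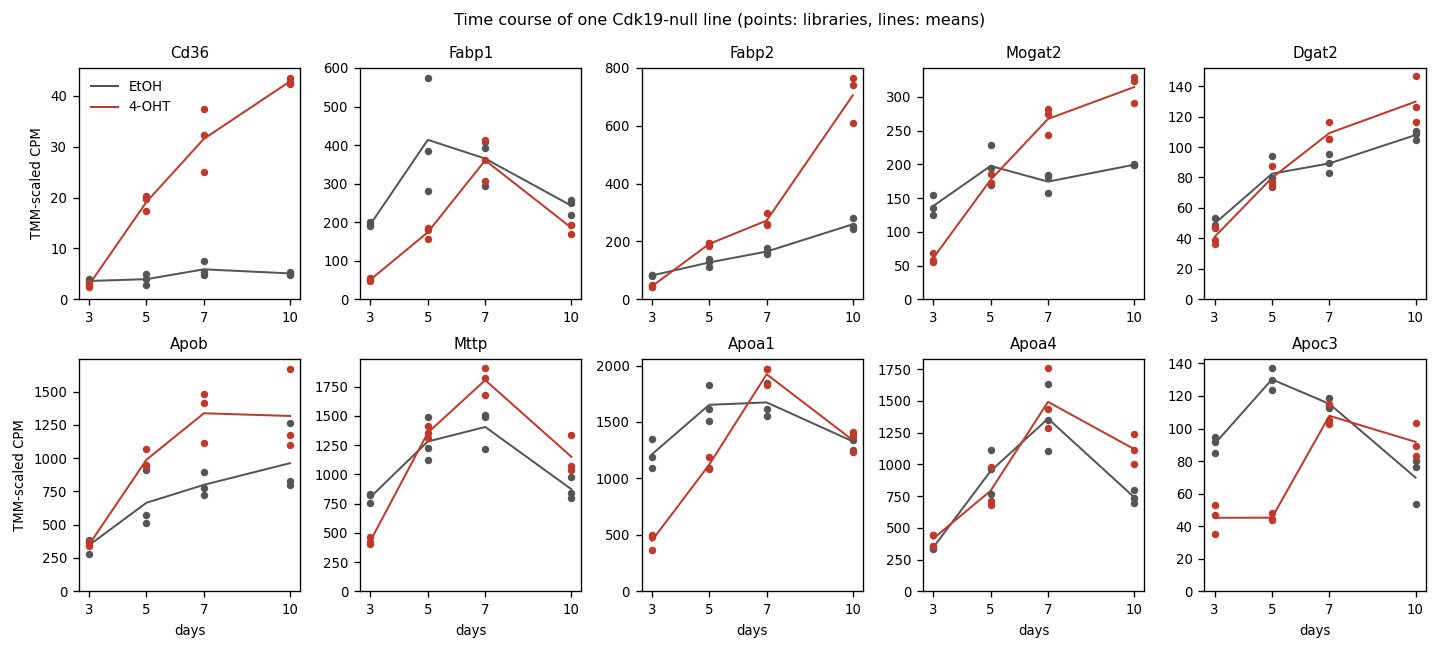
Level of each member as TMM-scaled CPM on a linear axis from 0 against days after treatment of the Cdk19-null line, with 1 point per library and lines through the means for EtOH (grey) and 4-OHT (red). Cd36 stays between 2.89 and 7.56 CPM with EtOH and reaches 42.4 to 43.5 CPM on day 10 with 4-OHT, while Fabp1 starts at 46.9 to 55.0 CPM on day 3 with 4-OHT, below the 189 to 201 CPM of EtOH.

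The response to 4-OHT differed between days 3 and 10 for most members. The day 10 log2 fold change exceeded that of day 3 by 3.41 ± 0.26 for Cd36. Of the other 9 members 6 passed both cutoffs in the test of this difference, all higher, against 26.3% of all genes called and 13.9% called higher. Both carriers were among them, with 2.31 ± 0.12 for Fabp2 (edgeR adjusted p = 1.3e-14) and 1.54 ± 0.27 for Fabp1 (0.00016). Mogat2 (1.84 ± 0.14, 3.7e-11), Apoa1 (1.45 ± 0.14, 1.4e-09), Apoc3 (1.40 ± 0.18, 1.9e-06) and Mttp (1.30 ± 0.15, 8.1e-08) made up the rest. Dgat2 (0.55 ± 0.14, 0.0017), Apob (0.44 ± 0.31, 0.27) and Apoa4 (0.33 ± 0.23, 0.27) did not pass. Dgat2 was called without 4-OHT day 10 replicate 3 (0.62) or 4-OHT day 3 replicate 2 (0.66). Enterocyte markers moved the same way, with 7 of 8 called higher and 0 lower in this difference.

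Some members also rose with culture time in the EtOH controls. From day 3 to day 10 Fabp2 rose by 1.65 ± 0.087 (edgeR adjusted p = 3.1e-15), Apob by 1.48 ± 0.22 (1.7e-05), Dgat2 by 1.12 ± 0.10 (1.2e-10) and Apoa4 by 1.11 ± 0.17 (1.1e-05). These 4 of 10 stood against 38.4% of all genes called and 16% called higher, and 8 of 10 did not overlap between the days, against 71.8%. Cd36 gave 0.50 ± 0.19 (adjusted p = 0.022), under the fold cutoff.

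In Wnt3-CM, a medium that supplies a Wnt ligand otherwise made by Paneth cells, Cd36 was close to absent in the control and present after 4-OHT. The control libraries held 0.684, 0.472 and 0.579 CPM, which is 9 to 13 counts each, and the 4-OHT libraries 14.3, 15.2 and 14.2 CPM, or 288 to 312 counts. The log2 fold change was 4.64 ± 0.18 (fold change 24.9). Both carriers rose. Fabp1 went from 60.6, 36.7 and 46.5 to 208, 187 and 228 CPM (2.12 ± 0.19, edgeR adjusted p = 0.00032) and Fabp2 from 63.3, 50.0 and 64.2 to 243, 244 and 289 CPM (2.13 ± 0.10, adjusted p = 9.5e-11). All surface apolipoproteins rose too. Apoa4 rose from 231, 219 and 225 to 645, 655 and 680.3 CPM (1.55 ± 0.066, 5.6e-14), Apoc3 from 21.9, 17.5 and 24.6 to 50.8, 47.9 and 52.5 CPM (1.24 ± 0.10, 3.4e-09) and Apoa1 from 421, 400.5 and 491 to 723, 679 and 769 CPM (0.73 ± 0.078, 1.7e-07). The enzymes parted. Mogat2 rose from 132, 131 and 137 to 231, 235 and 221 CPM (0.78 ± 0.063, adjusted p = 1.6e-09), whereas Dgat2 read 148, 157 and 162 CPM with EtOH and 131, 120.5 and 113 CPM with 4-OHT (-0.36 ± 0.069, adjusted p = 0.0002), lower in every library but with a fold change under 1.5. The assembly pair parted as well, with Mttp rising by 0.64 ± 0.078 (adjusted p = 7.1e-07) and Apob at -0.21 ± 0.086 (adjusted p = 0.051). Leaving Cd36 aside, 7 of 9 members were called, all higher, against 16.9% of all genes called and 9.45% called higher. Libraries did not overlap for 8 of the 9, against 56.3%. The enterocyte sum overlapped between the treatments, at 7006 to 8378 CPM with EtOH and 6393 to 7273 CPM with 4-OHT, with 4 of its 8 genes called higher. In the same libraries 5 of 5 Paneth and 3 of 6 goblet markers fell, with Paneth sums of 1624 to 1994 CPM against 5944 to 6583 CPM. The macrophage sum was 5.37 to 6.03 CPM with 4-OHT and 14.3 to 17.6 CPM with EtOH. The adipocyte sum was 21.9 to 24.6 CPM with 4-OHT and 51.4 to 52.5 CPM with EtOH. Epithelial and distal small intestine sums were lower with 4-OHT as well, without overlap. The sum over 6 proximal small intestine markers was 576 to 715 CPM with 4-OHT and 330.3 to 386 CPM with EtOH. The part of these shifts was not tested.

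Set against the response of the same line after 10 days in standard medium, in a joint fit of 12 libraries, the response in Wnt3-CM was larger by 1.57 ± 0.20 for Cd36. It was larger for Fabp1 by 2.5 ± 0.21 (edgeR adjusted p = 4.4e-06), Apoa4 by 0.96 ± 0.11 (1.5e-06), Apoc3 by 0.84 ± 0.21 (0.01), Apoa1 by 0.71 ± 0.11 (8.1e-05) and Fabp2 by 0.68 ± 0.15 (0.0025). It was smaller for Dgat2 (-0.63 ± 0.11, 0.00019). That is 6 of the 9 members other than Cd36, against 13.3% of all genes. Apob (-0.67 ± 0.29, 0.13), Mttp (0.24 ± 0.14, 0.22) and Mogat2 (0.12 ± 0.083, 0.31) did not pass. The Dgat2 call was lost without standard medium 4-OHT replicate 1 (-0.53) or Wnt3-CM 4-OHT replicate 3 (-0.57), the Fabp2 call without Wnt3-CM EtOH replicate 2 (0.58), and Apob was called without standard medium EtOH replicate 1 (-0.91). The media were run as separate sets of libraries, so medium and set cannot be told apart here.

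In Cdk19 ko/D173A organoids, where a kinase-dead CDK19 remains after loss of CDK8, every member was higher with 4-OHT in all libraries, with Apoa4 next to Cd36 in size. Cd36 read 8.81, 16.4 and 15.6 CPM with EtOH and 30.3, 63.4 and 60.1 CPM with 4-OHT (1.91 ± 0.40, fold change 3.76), and replicate 1 was the lowest in both groups. Apoa4 rose from 1028, 822 and 841 to 2224, 2948 and 3124 CPM (1.62 ± 0.14, edgeR adjusted p = 0.00016). Apoa1 rose from 1698, 1584 and 1593 to 2923, 3587 and 4011 CPM (1.11 ± 0.10, 7.1e-05). These apolipoproteins separated the groups by more than their whole spread. The enzymes rose with them, Dgat2 from 124, 107 and 113 to 216, 229.8 and 234 CPM (0.98 ± 0.071, 8.2e-06) and Mogat2 from 175, 192 and 193 to 238, 322 and 323 CPM (0.66 ± 0.11, 0.0027). Fabp1 (0.83 ± 0.16, 0.01), Apoc3 (0.71 ± 0.13, 0.0055), Mttp (0.69 ± 0.06, 2.8e-05) and Apob (0.69 ± 0.15, 0.011) also rose. Fabp2, with 217, 338 and 292 CPM against 352, 633 and 702 CPM, gave 0.99 ± 0.33 (adjusted p = 0.09) and passed without 4-OHT replicate 1 (1.24). With the column number as a replicate block, chosen after seeing the data, it gave 0.96 (adjusted p = 1.8e-05). Of the 9 members other than Cd36, 8 were called, all higher, against 12.3% of all genes called and 6.05% called higher, and all 9 did not overlap, against 43.2%. The Apob call was lost when any 1 of 4 libraries was left out, with values of 0.56 without 4-OHT replicate 1 and 0.71, 0.65 and 0.66 without EtOH replicates 1, 2 and 3. The enterocyte sum was 12189 to 13570.0 CPM with EtOH and 13892 to 14992 CPM with 4-OHT. Of its 8 genes 2 were called higher and 0 lower, and 7 had positive log2 fold changes. Of 5 distal small intestine markers tested 2 rose and 1 fell. Of 4 macrophage markers tested 1 was called higher, the only 1 with a positive log2 fold change. Of the 5 Paneth markers 4 fell and 1 rose, with sums of 1885 to 1976 CPM with EtOH and 1246 to 1453 CPM with 4-OHT. The proximal small intestine sum was 706 to 782 CPM against 1063 to 1181 CPM, with 1 of 6 genes called higher. Their part in the lipid gene levels was not tested.

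The response of this line was compared with that of the Cdk19-null line on day 7 in 1 joint fit. It was larger for Apoa4 by 1.49 ± 0.24 (edgeR adjusted p = 0.0013), Apoa1 by 0.91 ± 0.14 (0.0004), Fabp1 by 0.84 ± 0.25 (0.035), Apoc3 by 0.80 ± 0.15 (0.002) and Dgat2 by 0.69 ± 0.10 (0.00033), 5 of the 9 members other than Cd36, against 11.1% of all genes. The Fabp1 call was lost in 9 of the 12 fits that left out 1 library, with values from 0.69 to 0.88. Cd36 gave -0.51 ± 0.50, the lowest of the members, with an interval of 2 standard errors from -1.51 to 0.49 that leaves its direction undetermined. Mttp (0.32 ± 0.12), Fabp2 (0.27 ± 0.34), Mogat2 (0.038 ± 0.15) and Apob (-0.053 ± 0.21) did not pass. Line and allele cannot be told apart in this comparison.

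**Figure D4:**
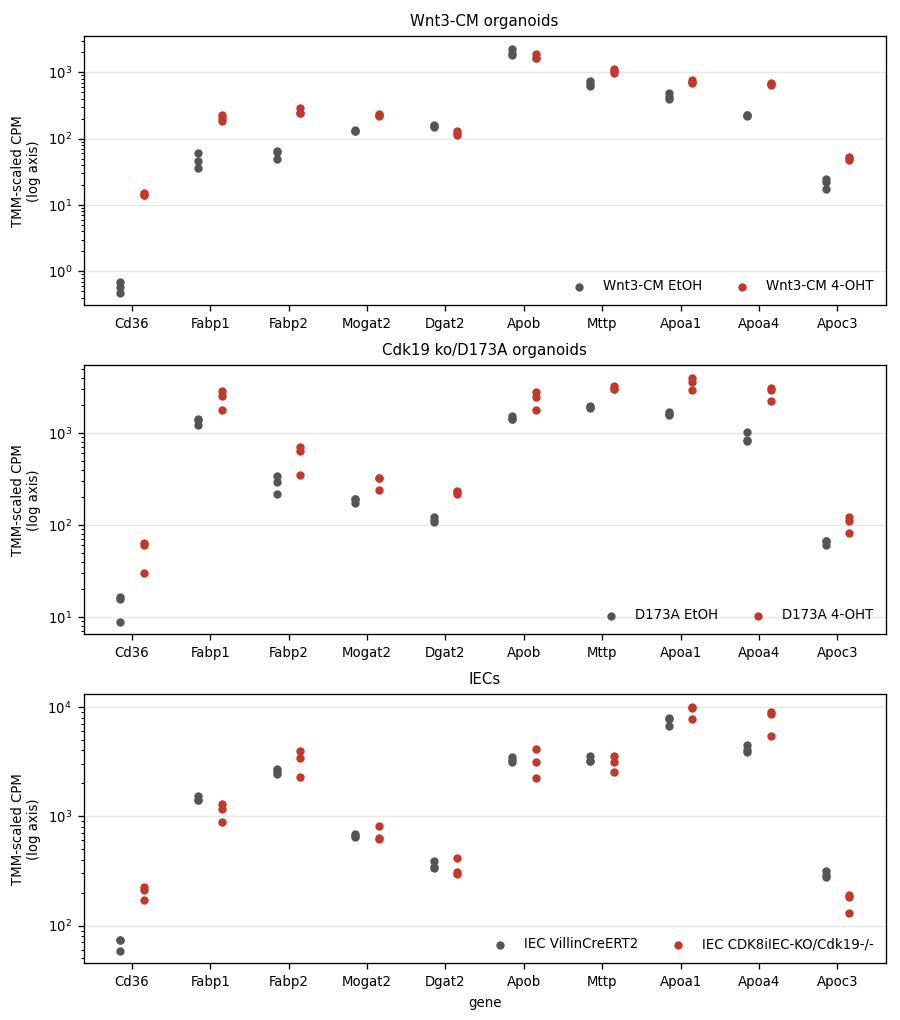
Level of each member as TMM-scaled CPM on a log axis in Wnt3-CM organoids (top), Cdk19 ko/D173A organoids (middle) and IECs (bottom), with 1 point per library, controls in grey and deletion groups in red. All 10 members separate in the middle panel, while in IECs Mogat2, Dgat2, Apob and Mttp of both groups overlap.

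In IECs from mice, Cd36 was about 3 times higher without both kinases, and the enzymes and assembly genes overlapped with the control. Cd36 read 58.4, 73.0 and 73.4 CPM in VillinCreERT2 and 225, 171 and 213 CPM in CDK8iIEC-KO/Cdk19-/- IECs (1.57 ± 0.15, fold change 2.98). All 3 deletion libraries exceeded the highest control. Apoa4 read 4487, 3839 and 4064 CPM in the control and 8952, 5434 and 8651 CPM in the deletion libraries, again without overlap (0.89 ± 0.21). Apoc3 was lower in every deletion library, at 191, 129 and 181 CPM against 315, 275 and 289 CPM (-0.81 ± 0.16), and so was Fabp1, at 1159, 887 and 1292 CPM against 1524, 1409 and 1394 CPM (-0.37 ± 0.15). Apoa4 and Apoc3, neighbours in the gene cluster, thus stood on opposite sides of the control. Fabp2, with 2436, 2580.0 and 2689 CPM against 3993, 2297 and 3414 CPM, overlapped because of deletion replicate 2 (0.33 ± 0.20). Apoa1 gave 0.31 ± 0.15, Mogat2 0.062 ± 0.13, Dgat2 -0.053 ± 0.15, Apob -0.059 ± 0.21 and Mttp -0.11 ± 0.15, all with overlapping libraries. Cd36 was the 1 member past both cutoffs, against 1.5% of all genes, and 4 of 10 did not overlap, against 26.8%, from which nothing is read. The members' median was 0.0046 against 0.0049 over all genes.

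Call counts in IECs turned on single libraries. The members called were 0 without CDK8iIEC-KO/Cdk19-/- replicate 3 or without VillinCreERT2 replicate 1 or 3, 2 without VillinCreERT2 replicate 2 and 3 without CDK8iIEC-KO/Cdk19-/- replicate 2, while the Cd36 log2 fold change stayed between 1.47 and 1.68. Secretory markers were lower in the deletion libraries, with Paneth sums of 671 to 1606 CPM against 2778 to 4504 CPM and goblet sums of 5144 to 7388 CPM against 12261 to 14620 CPM. The enterocyte sum was 17102 to 23969.6 CPM against 26457 to 28764 CPM, with 0 of 8 genes called. The epithelial sum was 8137 to 8908 CPM against 9538 to 9839 CPM and the proximal small intestine sum 2356 to 3467 CPM against 3527 to 3984 CPM, without overlap and with 0 of 6 genes called in either list. Markers of other cells were higher, 7 of 7 macrophage, 7 of 7 endothelial and 6 of 6 lymphocyte genes having positive log2 fold changes, with 0 macrophage and 0 endothelial genes called. The macrophage sum was 9.88, 169 and 18.7 CPM in VillinCreERT2 and 499, 178 and 130.0 CPM in CDK8iIEC-KO/Cdk19-/- replicates 1, 2 and 3. The endothelial sum was 3.51 to 9.13 CPM against 15.9 to 28.2 CPM and the lymphocyte sum 59.97 to 245 CPM against 563 to 847 CPM. All 4 platelet and erythroid genes, all 5 mesenchymal genes and the 4 pancreatic genes tested of 5 also had positive log2 fold changes, with 0 of them called. The platelet and erythroid sum was 5.27 to 45.5 CPM in VillinCreERT2 and 26.7 to 124.5 CPM in CDK8iIEC-KO/Cdk19-/-. The mesenchymal sum was 4.61, 583 and 30.8 CPM against 626, 393 and 304 CPM, and the pancreatic sum 4.07 to 7.83 CPM against 11.2 to 55.8 CPM. Adipocyte genes other than Cidec were near 0, with Lep at 0 in all 6 libraries. Macrophages, endothelium and platelets make Cd36 as well, and the part of these cells in the lipid gene levels was not tested.

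Cd36 can be set against the other roles over all 10 deletion comparisons, several of which share controls. As a description, it had the highest log2 fold change of the 10 members in 9 of them and ranked 4 on day 3 of the time course. Its log2 fold change exceeded the median of Apoa1, Apoa4 and Apoc3 by 2.21 in CDK8iIEC-KO, 0.52 in Cdk8fl/fl/Cdk19-/- and 2.69 in CDK8iIEC-KO/Cdk19-/- organoids. In the time course the excess was 0.66, 2.83, 2.28 and 2.67 on days 3, 5, 7 and 10. It was 3.40 in Wnt3-CM, 0.80 in Cdk19 ko/D173A organoids and 1.27 in IECs. The median of the re-esterification enzymes Mogat2 and Dgat2 was -0.42, 0.056 and 0.03 in the 3 day 7 genotypes, in the order just given. It went from -0.73 on day 3 through -0.10 and 0.45 to 0.46 on day 10, and was 0.21 in Wnt3-CM, 0.82 in Cdk19 ko/D173A organoids and 0.0046 in IECs. Cdk19 ko/D173A organoids therefore held both the highest enzyme median of the 10 comparisons and a small excess of Cd36 over the apolipoproteins.

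**Figure D5:**
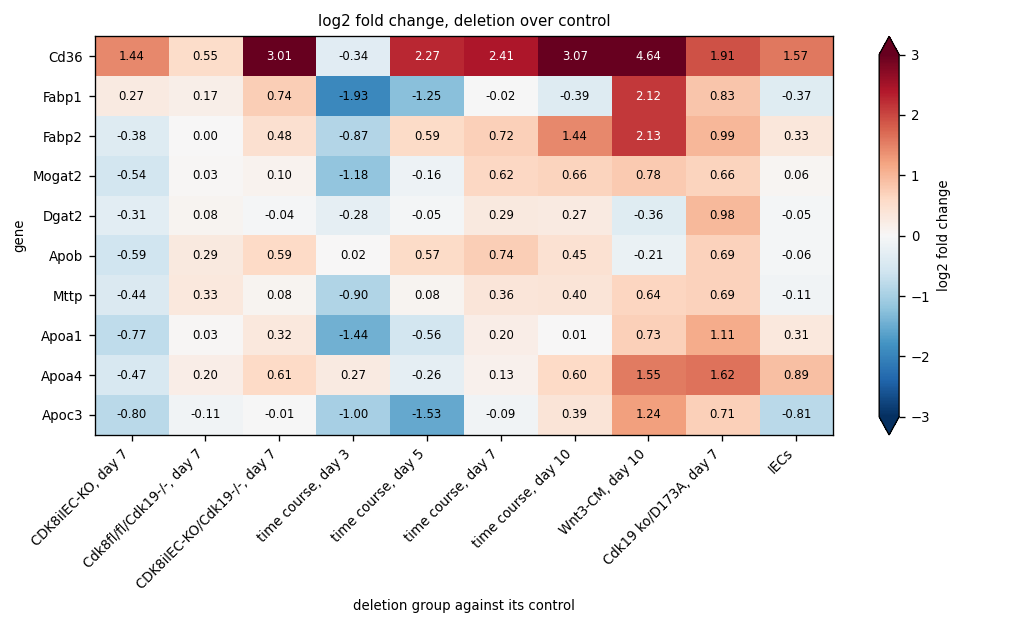
Log2 fold change of each member (y axis) in the 10 comparisons of a deletion group with its control (x axis), printed in each field and coloured from blue (lower) to red (higher), with colours ending at -3 and 3. The Cd36 row is red in 9 of 10 fields, from 0.55 to 4.64, while Fabp1 runs from -1.93 on day 3 to 2.12 in Wnt3-CM.

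Other genes of lipid absorption, 67 in all and none of them a member, gave a background for these values, and 66 of them were found in the count tables, all but Vamp7. In day 7 organoids 9 of 63 tested were called higher and 2 lower in CDK8iIEC-KO/Cdk19-/-, a share of 17.5% against 19.4% of all genes. In CDK8iIEC-KO 1 was higher and 2 were lower (4.76% against 7.23% of all genes), and in Cdk8fl/fl/Cdk19-/- 2 were higher and 1 was lower (4.76% against 5.25%). None of these shares exceeded that of all genes. Those higher without both kinases included Acsl4, an acyl-CoA synthetase (1.23 ± 0.10, edgeR adjusted p = 2e-09), Scarb1, a scavenger receptor for lipoprotein cholesterol (0.94 ± 0.11, 4.3e-08), Lpin1, a phosphatidate phosphatase (0.85 ± 0.055, 1.9e-12), and Aadac, a microsomal lipase (0.81 ± 0.057, 1.1e-11). The cholesterol exporter Abca1 was lower in CDK8iIEC-KO/Cdk19-/- (-1.31 ± 0.18, 1.4e-05) and in CDK8iIEC-KO (-1.27 ± 0.17, 4.8e-05), and it was also lower in C57BL/6 than in VillinCreERT2 (-1.36 ± 0.18, 8e-06). Slc27a4, a fatty acid transport protein, was lower in CDK8iIEC-KO (-0.77 ± 0.081, 5.2e-07). In Cdk8fl/fl/Cdk19-/- Scarb1 was lower (-0.71 ± 0.12, 0.00011) and Abca1 higher (0.61 ± 0.19, 0.043). Against the sum of the single knockouts, CDK8iIEC-KO/Cdk19-/- was higher in Scarb1 by 1.45 ± 0.16 (7.7e-08), in Cideb, a lipid droplet gene, by 1.08 ± 0.11 (2e-08), in the acyl-CoA synthetase gene Slc27a2 by 1.05 ± 0.10 (8.5e-09) and in Acsl4 by 0.95 ± 0.15 (2.4e-05), and lower in G0s2, an inhibitor of lipolysis (-2.63 ± 0.73, 0.0064). The G0s2 value includes the C57BL/6 control, where G0s2 was low, at 0.0653 times a VillinCreERT2 mean of 64.3 counts. Against this sum 13 of 63 genes were called higher and 4 lower, 27% against 19.6% of all genes. Between the control lines C57BL/6 was lower in G0s2 (-3.94 ± 0.50, 1.4e-06), Slc27a4 (-0.84 ± 0.082, 2.2e-08) and A1cf, a partner of Apob mRNA editing (-0.80 ± 0.12, 3.9e-05), and higher in Apoe (0.91 ± 0.16, 2.3e-05).

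Along the time course the share of the list called was above that of all genes on days 3 and 10, near it on day 7 and below it on day 5. On day 3, 3 of 60 genes rose and 17 fell, 33.3% called against 12.4% of all genes. On day 5, 4 rose and 1 fell (8.33% against 13.2%), and on day 7, 10 rose and 2 fell (20% against 18.3%). On day 10, 18 rose and 1 fell, 31.7% called against 15.8% of all genes. The day 3 falls included the sterol exporters Abcg5 (-1.84 ± 0.13, edgeR adjusted p = 2.7e-10) and Abcg8 (-1.56 ± 0.13, 3.2e-09), the fatty acid receptor Ppara (-1.36 ± 0.15, 4.6e-08) and the transcription factor Hnf4g (-1.35 ± 0.13, 3.9e-08). Abcg5 and Abcg8 overlap on opposite strands, and the strand of counting is not given in the sources used here, so reads in the overlap cannot be told apart. Acsl4 rose on day 3 (2.02 ± 0.14, 3.7e-12). The day 5 rises were Apobec1, which edits Apob mRNA (0.86 ± 0.079, 2e-09), the glycerol phosphate acyltransferase gene Gpam (0.81 ± 0.076, 2.9e-09), the sterol acyltransferase gene Soat2 (0.70 ± 0.077, 5.5e-08) and Lpin1 (0.59 ± 0.085, 4.6e-06). On day 7 the coactivator Ppargc1a (1.24 ± 0.15, 4.8e-07), Apobec1 (1.17 ± 0.079, 1.8e-12), the bile acid receptor Nr1h4 (0.93 ± 0.079, 1.4e-10) and Pla2g12b (0.88 ± 0.11, 7.3e-08) rose and Apoe fell (-0.82 ± 0.21, 0.0023). The day 10 rises included 6 of 13 genes of chylomicron assembly, among them Pla2g12b (1.18 ± 0.10, 1.2e-10), Apobec1 (1.08 ± 0.08, 7.2e-12), and Tm6sf2 (0.97 ± 0.077, 2.7e-11). They also included Ppargc1a (1.21 ± 0.18, 6e-06) and Aadac (1.01 ± 0.10, 3.2e-09). Dgat1, the other diglyceride acyltransferase, fell on day 3 (-1.27 ± 0.13, 8.3e-08) and rose on day 10 (0.66 ± 0.12, 0.00013), where Dgat2 did neither. The response differed between days 10 and 3 for 33 of 60 genes, 30 higher and 3 lower, or 55% against 26.3% of all genes. Among those with a mean of at least 50 counts in a group, the widest differences were those of Acsl4 (-2.56 ± 0.21, 3.8e-11), Abcg5 (2.5 ± 0.17, 1.6e-10), Abcg8 (2.31 ± 0.17, 6.5e-10), Aadac (2.11 ± 0.14, 3.8e-12) and the sterol receptor Nr1h3 (2.11 ± 0.15, 1.3e-11). From day 3 to day 10 in EtOH, Ppargc1a (-2.23 ± 0.17, 3.7e-11), Klf5 (-1.28 ± 0.079, 4.4e-14) and Ppard (-1.14 ± 0.077, 2.9e-13) fell, while Abhd5 (1.16 ± 0.12, 1.4e-09) and Dbi (1.01 ± 0.084, 2e-11) rose.

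In Wnt3-CM 9 of 59 genes rose and 1 fell, 16.9% called, the same share as the 16.9% of all genes. The rises were led by Aadac (2.32 ± 0.10, edgeR adjusted p = 6.2e-14) and the acyl-CoA binding gene Dbi (1.5 ± 0.13, 1.2e-05), ahead of Lpin1 (1.27 ± 0.12, 1.4e-05), Ppara (1.21 ± 0.12, 6e-08) and Acsl4 (1.08 ± 0.14, 1.5e-06). Compared with standard medium, the response was larger for Acsl4 (1.62 ± 0.19, 2.3e-06) and Aadac (1.31 ± 0.13, 5.6e-07) and smaller for Apobec1 (-1.65 ± 0.11, 2.5e-09), Soat2 (-1.18 ± 0.088, 1.2e-08) and Ppargc1a (-1.13 ± 0.17, 5.9e-05). Between the media 8 of 60 genes were called higher and 11 lower, 31.7% against 13.3% of all genes. In Cdk19 ko/D173A organoids 10 of 63 rose and 0 fell, or 15.9% against 12.3% of all genes. Abca1 rose there by 3.27 ± 0.33 (0.00093), Aadac by 1.02 ± 0.15 (0.0021), Slc27a2 by 0.92 ± 0.081 (2.8e-05), Acsl4 by 0.78 ± 0.097 (0.00028) and the lipid droplet gene Plin2 by 0.75 ± 0.074 (5.7e-05). Compared with the Cdk19-null line on day 7, the response was larger for Abca1 (6.49 ± 0.71, 6.7e-05), Got2 (1.04 ± 0.12, 4.1e-05) and Aadac (0.91 ± 0.18, 0.0028) and smaller for Apobec1 (-0.73 ± 0.13, 0.00097) and Pla2g12b (-0.68 ± 0.15, 0.0053). In this difference 4 of 63 genes were called higher and 3 lower, 11.1% against 11.1% of all genes. The Abca1 difference exceeds its rise in Cdk19 ko/D173A organoids, so part of it comes from the Cdk19-null line. Abca1 was not among the called genes with a mean of at least 50 counts in that line on day 7. In IECs 0 of 64 rose and 2 fell, or 3.12% against 1.5% of all genes, Abcg5 from a mean of 431 to 206 CPM (-1.07 ± 0.11, 0.017) and Abcg8 from 399 to 243 CPM (-0.72 ± 0.13, 0.047). That count was 0 with the replicate block and 0 without CDK8iIEC-KO/Cdk19-/- replicate 3 or VillinCreERT2 replicate 1 or 3. It was 1 without CDK8iIEC-KO/Cdk19-/- replicate 1, 5 without its replicate 2, 6 without VillinCreERT2 replicate 2, 6 with no filter on low counts and 7 with DESeq2. Hnf4a, a regulator of enterocyte genes, was called in none of the comparisons.

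Over the 24 time course libraries, log2 CPM of Cd36 followed that of Fabp2 (Pearson r = 0.82) and Apob (0.81) most closely among the members, ahead of Mogat2 (0.73), Dgat2 (0.70), Mttp (0.63) and Apoa4 (0.62). It followed Apoa1 (0.41), Fabp1 (0.25) and Apoc3 (0.077) least. Fabp1 and Apoa1 went together at 0.95. Among 10648 genes averaging at least 5 CPM, the genes most like Cd36 were Neurl3 (0.979), Cyp4b1 (0.971), Asb13 (0.969), Abhd3 (0.966) and Slc13a1 (0.966). Those most like Apoa4 were Ube2j1 (0.945), Dnah2 (0.938), Pgd (0.937), Nampt (0.936) and Slc41a2 (0.936). These points share 1 line, 8 groups and their treatments, and the correlations are a description.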

How the data were processed

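PolyA RNA of 57 libraries was analysed from 4 tables of raw read counts, which the authors deposited per gene with neither scaling nor a filter. Per the submitters' processing notes, reads were handled with STAR 2.5.2 and Subread 1.6.3 (featureCounts) on mm10, and the strand of counting is not given in the sources used here. Of 54752 gene identifiers, 53861 occur in GENCODE vM21 (GRCm38), which gave positions and exon lengths. Separate fits were made per table in R 4.3.3 with edgeR 4.0.16 (filterByExpr, TMM factors, robust quasi-likelihood F test), with the 5 day 7 groups together, the 8 time course groups together and the remaining groups as pairs. Differences between responses were contrasts within a fit, or in a joint fit of 12 libraries. P-values were adjusted over all genes tested, and the standard error is the log2 fold change over the root of F. Log2 CPM for correlations used a prior count of 2. The scripts were checked on simulated counts.

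The members and gene lists were chosen with earlier results of these data known. All 10 members are named in every comparison. Of the 67 other lipid absorption genes, up to 5 called ones per comparison with the largest change were named if their mean reached 50 counts in one of the groups, and the 5 genes most like Cd36 and Apoa4. Dgat1 and Hnf4a were named after their values were seen. Alternatives were upper quartile normalization, DESeq2 1.42.0, no filter, a minimum of 10 counts in every library, only the groups compared, the replicate number as a block (for Wnt3-CM and Cdk19 ko/D173A the column number, chosen after seeing the data), the mean of both control lines as control, C57BL/6 as control of CDK8iIEC-KO (chosen after seeing the data), CPM by total counts, and each library left out in turn. The tables hold 6 columns that were mapped to no sample (IECs with the D173A allele), so the comparison planned for them was left out. Promoter windows are from RefSeq (GRCm38.p6). Figures were drawn with matplotlib 3.10.9.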

Additional observations from a re-analysis of the deposited data

Results flagged for a closer look

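The values below passed a test of a difference between responses, and each has its adjusted p in the report. Cd36, whose level helped to choose the set, was not put to this test. Groups of 3 libraries are too small for the test of single outlying samples. Between days 3 and 10 of the time course the response to 4-OHT differed by 2.31 for Fabp2, 1.84 for Mogat2, 1.54 for Fabp1, 1.45 for Apoa1, 1.40 for Apoc3 and 1.30 for Mttp.

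Between Wnt3-CM and standard medium on day 10 it differed by 2.5 for Fabp1, 0.96 for Apoa4, 0.84 for Apoc3, 0.71 for Apoa1, 0.68 for Fabp2 and -0.63 for Dgat2. Between Cdk19 ko/D173A and Cdk19-null organoids on day 7 it differed by 1.49 for Apoa4, 0.91 for Apoa1, 0.84 for Fabp1, 0.80 for Apoc3 and 0.69 for Dgat2. The last 2 differences set lines or sets of libraries against each other that carry no common control, and this cannot be told apart from the allele or the medium.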

How the results depend on the processing

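Over all alternatives the number of members called stayed within 1.5 times the reported count in 196 of 214 refits. Of 2138 refitted log2 fold changes of members 2001 counted as the same, 48 lost a call, 19 gained one, 50 changed sign and 20 moved. Same meant equal direction and side of the cutoffs. Calls were not consulted for Cd36 between a deletion group and its control, nor for any member between CDK8iIEC-KO/Cdk19-/- and VillinCreERT2. There, with the sign kept, same meant a shift under 1 standard error and moved a larger one, so calls lost there are not among the 48. Of the counts over all genes 201 of 214 stayed within 1.5 times, and of those over the other lipid genes 199 of 214. The cause of these shifts was not tested. In IECs 1 member was called, against 2 with at least 10 counts in every library, 3 with DESeq2, 3 with no filter, 2 without the libraries highest in macrophage markers and 0 with the replicate block, and 0 to 3 with 1 library left out. Over all genes the IEC count of 228 (98 higher, 130 lower) became 859 with DESeq2 (504 higher, 355 lower), 1103 with no filter (656 higher, 447 lower), 1168 without the libraries highest in macrophage markers (984 higher, 184 lower), 8 with the replicate block (6 higher, 2 lower), and 3, 5, 31, 42, 572 or 1566 with 1 library left out. At least 10 counts in every library gave 476 in place of 794 calls between Cdk8fl/fl/Cdk19-/- and C57BL/6 and 1303 in place of 2040 on day 5. Between the control lines, with Cd36 counted, 2 members were past both cutoffs with upper quartile normalization and 3 to 5 with 1 library left out. With 1 library left out the members called were 0 to 1 between Cdk8fl/fl/Cdk19-/- and C57BL/6, 2 to 4 between CDK8iIEC-KO/Cdk19-/- and VillinCreERT2 and 2 to 4 on day 7.

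With C57BL/6 organoids as the control, chosen after seeing the data, CDK8iIEC-KO held 1 called member in place of 4, and Apoa4 (0.39), Apob (0.0052), Dgat2 (0.29), Mttp (0.20) and Fabp1 (-0.21) changed sign. Over all genes 3104 were called (1191 higher, 1913 lower) in place of 1094. With upper quartile normalization Fabp2 gave -0.013 in Cdk8fl/fl/Cdk19-/-, Apoc3 0.034 and Dgat2 0.0044 in CDK8iIEC-KO/Cdk19-/-, Mogat2 0.045 between the control lines, Apoa1 -0.00047 on day 10 and Dgat2 0.0018 in IECs. Apoa1 on day 10 gave -0.00049 with no filter and -0.0046 with only the groups compared. Dgat2 in CDK8iIEC-KO/Cdk19-/- gave 0.26 against the mean of both control lines. Leaving out the IEC libraries highest in macrophage markers does not balance those markers, with sums of 9.88 and 18.7 CPM left in VillinCreERT2 and 178 and 130.08 CPM in CDK8iIEC-KO/Cdk19-/-. There Apob gave 0.12, Dgat2 0.016 and Mttp 0.012. With 1 library left out, ranges across 0 were found in Cdk8fl/fl/Cdk19-/- for Apoa1 (-0.068 to 0.098), Fabp2 (-0.075 to 0.071) and Mogat2 (-0.018 to 0.072), in CDK8iIEC-KO/Cdk19-/- for Apoc3 (-0.11 to 0.077) and Dgat2 (-0.11 to 0.0055), and between the control lines for Mogat2 (-0.12 to 0.0058). In the time course they were found for Apob on day 3 (-0.11 to 0.11), Dgat2 (-0.14 to 0.045) and Mttp (-0.016 to 0.19) on day 5, Apoa4 (-0.014 to 0.27) and Fabp1 (-0.15 to 0.070) on day 7 and Apoa1 on day 10 (-0.033 to 0.067). They were also found for Apob (-0.19 to 0.11) and Mogat2 (-0.037 to 0.17) in the difference between Cdk19 ko/D173A and Cdk19-null responses, and in IECs for Apob (-0.29 to 0.14), Dgat2 (-0.22 to 0.033), Mogat2 (-0.079 to 0.13) and Mttp (-0.23 to 0.0072).

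Equal replicate numbers did not go together by the threshold of 0.1: where the labels number the libraries, their lowest correlation per comparison ran from -0.41 in IECs to 0.044 on day 10. With the replicate block as pairing the count of members called changed by more than 1.5 times in IECs alone, from 1 to 0. For Wnt3-CM and Cdk19 ko/D173A organoids the column numbers served as the replicate block, chosen after seeing the data. Their lowest correlation was 0.0951 in Wnt3-CM and 0.095 in Cdk19 ko/D173A organoids, just under the threshold. With it Fabp2 was called in Cdk19 ko/D173A organoids (0.96, edgeR adjusted p = 1.8e-05), Apob was called in the difference between media (-0.65, adjusted p = 0.022), and Fabp1 was no longer called in the difference between Cdk19 ko/D173A and Cdk19-null responses (0.84, adjusted p = 0.069). The planned comparison of IECs with the D173A allele was not run. In Wnt3-CM controls 9 to 13 counts per library limit the precision of the Cd36 fold change, and with at least 10 counts in every library Cd36 was not tested there.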
